A study of Homo sapiens with 6 samples.

Results

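CTSD, CTSL, LAMP2, CLN3, ATP6AP1, GPNMB, FNIP2 and GABARAPL1 are 8 genes of the lysosome and of autophagy. They were chosen by name, with earlier results of these data known, from the 4101 genes of a table of expression in SH-SY5Y cells. SH-SY5Y is a wild-type human neuroblastoma cell line that is often used as a model of dopaminergic neurons. The METH-treatment group (3 libraries, METH 1 to METH 3) received 2 mM methamphetamine, a psychostimulant, and the PBS-treatment group (3 libraries, PBS 10 to PBS 12, named after their columns) received the same volume of buffer, both for 24 h by the treatment protocol, while a label gives the time as day 0. The question was which genes differ in expression between the groups. The groups were cultures of a single cell line, and p-values measure the spread between these cultures only.

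Lysosomes are acidic organelles in which proteases and other hydrolases degrade material that arrives by endocytosis or in autophagosomes. Their membrane proteins protect and connect the compartment, the proton pump V-ATPase acidifies it, and the kinase complex mTORC1 is controlled on its surface by the amino acid supply. The transcription factors TFEB, TFE3 and MITF, which mTORC1 holds back, are known to bind short E-box motifs before many lysosomal genes.

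Expression is given as CPM, the reads of a gene scaled to the total of its library without regard to gene length. The totals to which the libraries were scaled were between 85.7 and 110.77 M reads, of which 20027072 to 25449507 fell on the genes of the table. The table is a selection: its genes were marked as significant for the same comparison before deposit, so a gene of the table had to differ to be in it. Of 16 markers of adrenergic neuroblastoma cells, 8 were in the table, and their summed level was 1005 to 1147 CPM with PBS and 902 to 982 CPM with METH. Of these 8 markers, 6 were lower with METH and 1 was higher by limma (adjusted p under 0.1). Of 12 markers of mesenchymal neuroblastoma cells, 6 were in the table, with summed levels of 469 to 757 CPM with PBS and 818 to 1188 CPM with METH, and 4 of the 6 were higher. The shares called in the whole table were 35.8% lower and 33.3% higher. With adjustment over 15724 genes, the number implied by the authors' own adjustment, 2 adrenergic markers were lower and 1 higher, and 1 mesenchymal marker was higher, beside 7.49% of the table lower and 7.71% higher. In bulk RNA, a different share of cells of a type and a different amount of RNA per cell cannot be told apart.

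All 8 genes had a higher mean with METH, by ratios of means from 1.44 for CTSL and LAMP2 to 4.37 for GPNMB. Limma was fitted to log2 CPM after 0.1 was added, with Benjamini-Hochberg adjustment across 4101 genes and a threshold of 0.1. It called 8 of the 8 higher, where 33.3% of all genes of the table were called higher. The 8 genes were chosen with earlier results of these data known, from a table selected on this comparison. Their count is therefore a description and no test of the 8 as a set. The median log2 fold change of the 8 genes was 0.79, beside 0.11 over the table and 0.68 over the 2066 genes of the table with a positive change. In CTSL, ATP6AP1, GPNMB and FNIP2, 4 of the 8, each METH library lay above each PBS library, as in 31% of the table. In CTSD, LAMP2, CLN3 and GABARAPL1 the groups overlapped. For a single gene, the exact 2-sided permutation test cannot go below p = 0.1 with 3 against 3 libraries, and it gave 0.1 for the first 4 genes and 0.2 for the other 4. The count of 8 differed with the number of genes adjusted over, with the threshold and with the libraries used. When p-values were adjusted over the 15724 genes, 1 of the 8 was called (GPNMB), where 7.71% of the table was called higher. At a threshold of 0.05 over the table, 1 was called (GPNMB), where 17% of the table was. Without PBS 10, 2 were called (GPNMB and FNIP2), beside 24.8% of the table. Without PBS 12, METH 1 or METH 2, 1 was called in each case (GPNMB), beside 18.2%, 12% and 10% of the table. Without METH 3, 6 were called (beside 32.4%), and without PBS 11, 8 (beside 37.8%).

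**Figure D1:**
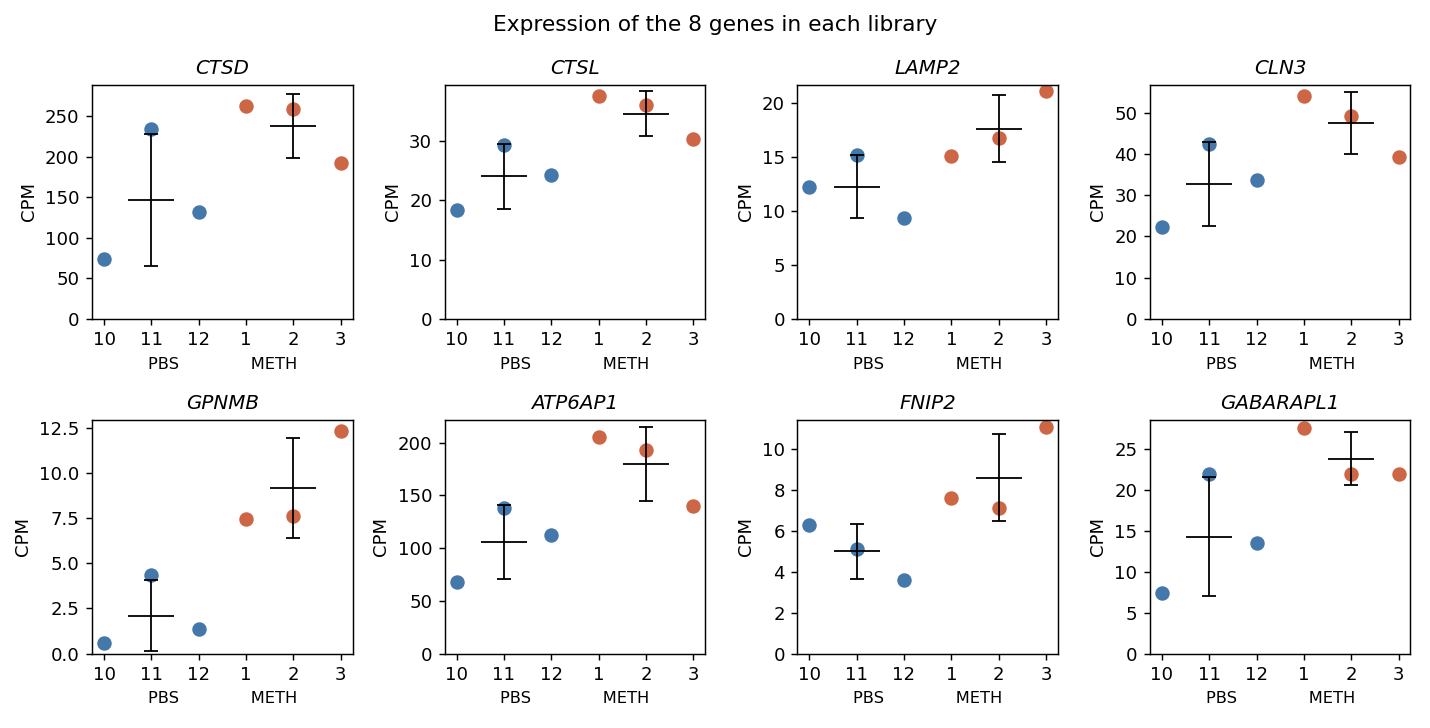
CPM (vertical axes, from 0) of the 8 genes in the PBS libraries 10, 11 and 12 (blue) and the METH libraries 1, 2 and 3 (red), with the mean and SD of each group as black lines. The METH points lie above all PBS points in CTSL, GPNMB, ATP6AP1 and FNIP2, and PBS 11 reaches into the METH range in the other 4.

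The windows from 250 bases before to 50 after the start of transcription of 7 of the 8 genes are in the RefSeq sequences for GRCh38.p14, with 2 starts each for CLN3 and FNIP2. LAMP2 had no entry. They were searched on both strands for the motifs that TFEB, TFE3 and MITF are known to bind. The full palindromic CLEAR element, which holds TCACGTGA between a G and a C, was in none of the 7 and in 0.353% of 35116 promoters. CACGTG, the core of the E-box, was in CTSD and CLN3 and in 7.26% of all promoters. TCACGTGA, which contains CACGTG, was in CLN3 and in 0.98% of all promoters. TCACATGA, the form of the motif bound by MITF in pigment cells, was in GPNMB and FNIP2 and in 1.00% of all promoters. The 5 matches are shown with 11 or 12 bases before the motif to let their flanks be compared, 5′ to 3′ on the strand of the gene and with the motif in capitals.

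CTSD (chr11:1763957-1763986, minus strand): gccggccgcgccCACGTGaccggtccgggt
CLN3, first match (chr16:28492087-28492116, minus strand): aaaacctctgagCACGTGatgggggaacac
CLN3, second match (chr16:28492058-28492087, minus strand): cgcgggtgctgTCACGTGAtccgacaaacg
GPNMB (chr7:23246701-23246730, plus strand): gcttaataccaTCACATGAtcctccccgag
FNIP2 (chr4:158805685-158805714, plus strand): ctgacactggcTCACATGAgagccattaag

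The motif began 47 bases before the start in CTSD, 63 before it in GPNMB and 143 before the second start in FNIP2. In CLN3 the first match began 30 or 22 bases before the start, depending on which of the 2 starts is taken, and the second match began 2 bases before the one start or at base 7 after the other.

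The proteases were CTSD and CTSL. CTSD (ENSG00000117984, chr11:1752752-1764573, minus strand, GRCh38) encodes cathepsin D, the main aspartic protease of lysosomes. It stood at 73.9, 235 and 132 CPM in PBS 10, PBS 11 and PBS 12 and at 263, 259 and 192 CPM in METH 1, METH 2 and METH 3. PBS 11 lay above METH 3, and the PBS values spread over a wider range than the METH values. The PBS mean was 147 ± 81.5 CPM and the METH mean 238 ± 39.9 CPM (SD, n = 3), a log2 fold change of 0.84 with an SE of 0.38 and a limma adjusted p of 0.0871. The 95% confidence interval reached from -0.02 to 1.69. The estimate was 0.42 without PBS 10 and 1.26 without PBS 11. AC068580.4, a gene on the same strand that overlaps CTSD, was also in the table (0.87, limma adjusted p = 0.0652), and how reads in the overlap were counted is not given in the sources used here, so the values of both are uncertain.

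CTSL (ENSG00000135047, chr9:87725519-87731393, plus strand) encodes cathepsin L, a cysteine protease that cleaves proteins in lysosomes. Its values were 18.5, 29.4 and 24.3 CPM in the PBS libraries and 37.6, 36.1 and 30.3 CPM in the METH libraries. The groups did not overlap, with a gap of less than 1 CPM between PBS 11 and METH 3. The log2 fold change was 0.54, with an SE of 0.23 and a limma adjusted p of 0.074. CTSL has several pseudogene copies in the genome, none of them in the table, and reads could be divided between copies. The remaining members of a list of 19 lysosomal proteases that were in the table were CTSA, cathepsin A, TPP1, a tripeptidyl peptidase, and SCPEP1, a carboxypeptidase. All 5 were called higher, beside 33.3% of the table, with a median log2 fold change of 0.87, and 2 of the 5 were called with adjustment over 15724 genes, beside 7.71% of the table. SCPEP1 (1.20, limma adjusted p = 0.0103), TPP1 (1.17, 0.0103) and CTSA (0.87, 0.0305) had larger changes than CTSD and CTSL, and their groups did not overlap, as in 31% of the table.

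The membrane proteins were LAMP2, CLN3 and GPNMB. LAMP2 (ENSG00000005893, chrX:120427827-120469365, minus strand) encodes an abundant glycoprotein of the lysosomal membrane that also takes part in chaperone-mediated autophagy. It stood at 12.2, 15.2 and 9.35 CPM with PBS and at 15.1, 16.8 and 21.1 CPM with METH. METH 1 lay just under PBS 11, and METH 3 was the highest library. The log2 fold change was 0.54, with an SE of 0.25, a confidence interval from -0.02 to 1.10 and a limma adjusted p of 0.0901. It was 0.36 without PBS 12 and 0.71 without PBS 11.

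CLN3 (ENSG00000188603, chr16:28474111-28495575, minus strand) encodes battenin, the lysosomal membrane protein that is lost in juvenile neuronal ceroid lipofuscinosis. The PBS libraries held 22.2, 42.3 and 33.6 CPM and the METH libraries 54.1, 49.1 and 39.2 CPM. PBS 11 lay above METH 3. The log2 fold change was 0.57, with an SE of 0.27, a confidence interval from -0.03 to 1.17 and a limma adjusted p of 0.091. Without PBS 10 it was 0.32. CLN3 overlaps AC138894.1 on the same strand and APOBR on the other strand. Neither was in the table.

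GPNMB (ENSG00000136235, chr7:23235967-23275108, plus strand) encodes a transmembrane glycoprotein of melanosomes and lysosomes, which macrophages and glia make in large amounts when their lysosomes are under load. It had the largest fold change of the 8 genes. PBS 10, PBS 11 and PBS 12 held 0.596, 4.33 and 1.34 CPM, from 66, 376 and 125 reads, and METH 1, METH 2 and METH 3 held 7.45, 7.64 and 12.3 CPM, from 638, 694 and 1320 reads. Each METH library lay above each PBS library, and within the PBS group the highest value was several times the lowest. The PBS mean was 2.09 ± 1.98 CPM and the METH mean 9.14 ± 2.77 CPM (SD, n = 3), a log2 fold change of 2.45 with an SE of 0.58, a confidence interval from 1.14 to 3.76 and a limma adjusted p of 0.0206. The estimate was 1.83 without PBS 10, which had the lowest value, and 3.17 without PBS 11, which had the highest of the group. GPNMB was called under 18 of 19 alternatives, the exception being edgeR on the reads with adjustment over 15724 genes (adjusted p = 0.132, log2 fold change 2.13).

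Because GPNMB also marks melanocytes and macrophages, the markers of such cells were read beside it. Of 7 melanocyte markers, 1 was in the table (PMEL, a structural protein of melanosomes), with 1.88 to 3.29 CPM in the PBS libraries and 3.62 to 5.94 CPM in the METH libraries, and it was called higher (0.91). Of 10 macrophage markers, 1 was in the table (CD14, a receptor for bacterial lipopolysaccharide), with 0.075 to 0.311 CPM in the PBS libraries and 0.407 to 0.525 CPM in the METH libraries, and it was called higher (0.96). Of 7 Schwann cell and glial markers, 1 was in the table (ERBB3, a neuregulin receptor), with 0.268 to 0.46 CPM in the PBS libraries and 0.537 to 0.785 CPM in the METH libraries, and it was called higher (0.78). All 3 passed the limma threshold in the direction of GPNMB, with no overlap between the groups, beside 33.3% of the table called higher and 31% without overlap in that direction. A marker had to differ between the groups, in either direction, to be in the table, so these calls are no independent result. CD14 and ERBB3 stayed below 1 CPM in every library. With adjustment over 15724 genes, 0 of the 3 were called by limma or by edgeR (3 were higher at an unadjusted limma p under 0.05, beside 28.5% of the table). The other markers of these lists were not in the table, so their levels are not known here. The part of such cells in the value of GPNMB was not tested.

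Among 38 lysosomal membrane proteins, 15 were in the table, of which 12 were called higher, 1 lower and 2 neither, beside 33.3% and 35.8% of the table, with a median log2 fold change of 0.58. With adjustment over 15724 genes, 2 were called higher and 0 lower by limma, beside 7.71% and 7.49% of the table, and 1 higher and 1 lower by edgeR. At an unadjusted limma p under 0.05, 10 were higher and 1 lower, beside 28.5% and 31.1% of the table. Among the genes called higher, the largest changes after GPNMB were those of SLC17A5, the sialic acid exporter (0.94, limma adjusted p = 0.0224), and CD63, a tetraspanin of late endosomes (0.91, 0.052). The gene that was lower was LAMP3, a relative of LAMP2, with 0.352, 1.69 and 1.93 CPM in the PBS libraries and 0.198, 0.176 and 0.187 CPM in the METH libraries (log2 fold change -2.04, limma adjusted p = 0.0271). LAMP2 and LAMP3 thus differed in direction.

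ATP6AP1 (ENSG00000071553, chrX:154428632-154436516, plus strand) encodes an accessory subunit of the V-ATPase that is needed for the assembly of its membrane sector. It stood at 67.9, 138 and 112 CPM with PBS and at 205, 193 and 139 CPM with METH. METH 3 lay just above PBS 11, so the groups touched without overlapping. The mean rose from 106 ± 35.3 to 179 ± 35.1 CPM (SD, n = 3), with a log2 fold change of 0.80, an SE of 0.29 and a limma adjusted p of 0.0563. Without PBS 10 the estimate was 0.51 (adjusted p = 0.107). Of 24 V-ATPase genes, 5 were in the table and all 5 were called higher, with no overlap between the groups (33.3% of the table were called higher, and in 31% each METH library lay above each PBS library) and a median log2 fold change of 0.59. ATP6V1D (0.65) and ATP6V1E1 (0.59), of the cytosolic sector, and ATP6V0E1 (0.58) and ATP6V0A1 (0.45), of the membrane sector, all had smaller changes than ATP6AP1. With adjustment over 15724 genes, 0 of these 5 were called by limma or by edgeR, where limma called 7.71% of the table higher. Limma with that adjustment called 3 of the 5 higher after removal of GC content and length (described below), beside 24.2% of the genes fitted. At an unadjusted limma p under 0.05, 4 were higher, beside 28.5% of the table.

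FNIP2 (ENSG00000052795, chr4:158769138-158908049, plus strand) encodes a partner of folliculin, with which it acts on the Rag GTPases in the control of mTORC1 and TFE3. The PBS libraries held 6.31, 5.14 and 3.62 CPM and the METH libraries 7.62, 7.16 and 11.1 CPM. The groups did not overlap, and PBS 10, the lowest PBS library in 6 of the other genes, was here the highest. The log2 fold change was 0.78, with an SE of 0.29 and a limma adjusted p of 0.0585. It was 0.96 without PBS 10 and 0.56 without PBS 12 (adjusted p = 0.149).

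Of 41 genes of mTORC1 and TFEB control, 12 were in the table, of which 5 were called higher, 1 lower and 6 neither, with a median log2 fold change of 0.49. The shares called in the whole table were 33.3% higher and 35.8% lower, and with adjustment over 15724 genes 1 of the 12 was called higher by limma (RRAGD, adjusted p = 0.0999), beside 7.71% of the table, and 0 by edgeR. Beside FNIP2, the higher ones were RRAGD, a Rag GTPase (0.88, limma adjusted p = 0.026), TFEB itself (0.80, 0.0956), CASTOR1, an arginine sensor (0.64, 0.0751), and LAMTOR5, of the Ragulator scaffold (0.56, 0.0865). TFEB stood at 4.87, 11.1 and 6.09 CPM with PBS and at 15.6, 15.3 and 7.43 CPM with METH, so METH 3 lay among the PBS values. RPTOR, the substrate-binding subunit of mTORC1, was lower (-0.55, 0.0529). Among those that did not pass were RRAGC (0.67, adjusted p = 0.155), CASTOR2 (0.43, 0.191), TFE3 (0.43, 0.156), ITFG2 (-0.53, 0.12) and DEPTOR (-0.59, 0.208), by the same limma test.

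GABARAPL1 (ENSG00000139112, chr12:10212458-10223130, plus strand) encodes a member of the ATG8 family, the small proteins that are joined to lipid on the autophagosome membrane. It stood at 7.39, 21.95 and 13.5 CPM with PBS and at 27.5, 21.88 and 21.97 CPM with METH. METH 2 lay under PBS 11 by less than 0.1 CPM, and METH 3 just above it. The mean rose from 14.3 ± 7.31 to 23.8 ± 3.24 CPM (SD, n = 3), with a log2 fold change of 0.86, an SE of 0.36 and a limma adjusted p of 0.0733. It was 0.46 without PBS 10 and 1.23 without PBS 11. A processed pseudogene, GABARAPL3, resembles it, and the antisense gene AC115676.1 lies within it. Neither was in the table, and whether counting used strand is not given in the sources used here.

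The other ATG8 genes of the table were MAP1LC3A (1.03, limma adjusted p = 0.0617), GABARAPL2 (0.59, 0.0486) and GABARAP (0.54, 0.151). GABARAP, which did not pass, had a PBS mean of 753 ± 231 CPM and a METH mean of 1070.01 ± 218 CPM (SD, n = 3). Of 61 autophagy genes, 19 were in the table, with 13 called higher, 3 lower and 3 neither (33.3% and 35.8% of the table were called higher and lower), and a median log2 fold change of 0.59. OPTN, a receptor that links cargo to ATG8 proteins, was higher (0.87, 0.0406). The lower ones were ULK1, an initiating kinase (-0.61, 0.0613), ATG2A, a lipid transfer protein (-0.65, 0.062), and ATG9B, a lipid scramblase (-0.91, 0.062). With adjustment over 15724 genes, 0 of the 19 were called by limma or by edgeR, beside 7.71% of the table higher and 7.49% lower by limma. After removal of GC content and length (described below), limma with that adjustment called 7 higher and 2 lower, beside 910 and 846 of the 3755 genes fitted. At an unadjusted limma p under 0.05 the counts were 13 higher and 3 lower, beside 28.5% and 31.1% of the table.

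**Figure D2:**
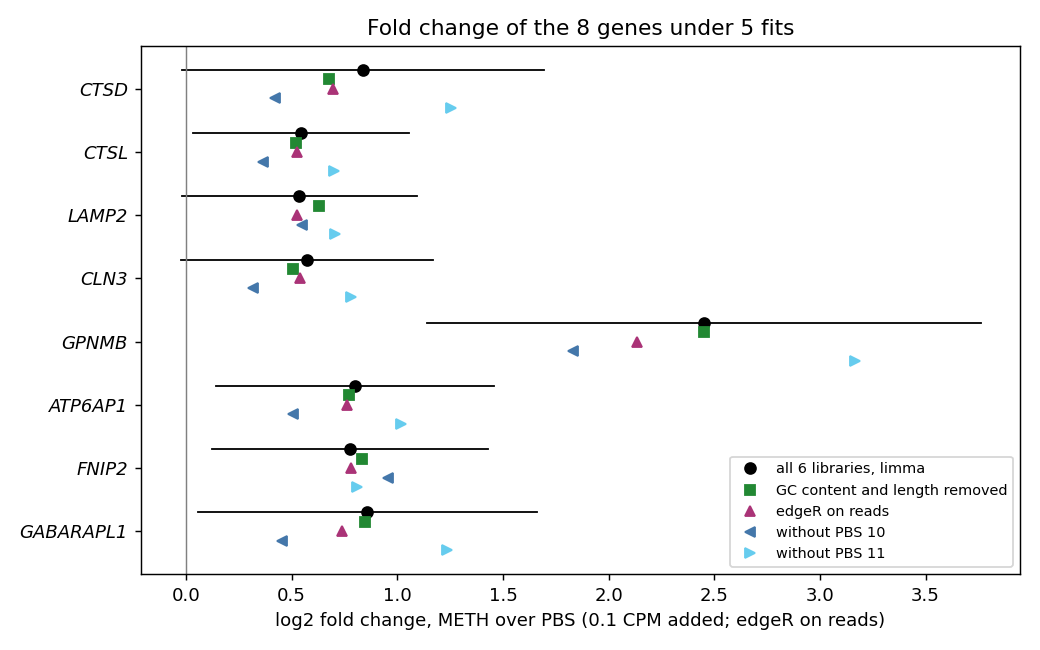
Log2 fold change of METH over PBS (horizontal axis) of the 8 genes by limma on all 6 libraries (black points, with lines for the 95% confidence interval), after removal of GC content and length, by edgeR on the reads with library totals, and by limma without PBS 10 or without PBS 11. All points lie above 0, and leaving out PBS 10 or PBS 11 moves CTSD, GPNMB and GABARAPL1 farthest.

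Beyond these classes, 21 of 43 lysosomal glycosidases and partner hydrolases were in the table, of which 15 were called higher and none lower (median 0.68), and 4 were called higher with adjustment over 15724 genes, beside 7.71% of the table. The largest changes were those of NEU1, a sialidase (1.89, limma adjusted p = 0.0103), NPC2, which carries cholesterol (1.45, 0.00986), and MANBA, a mannosidase (0.95, 0.0339). Of 38 genes of delivery to lysosomes, 7 were in the table, where BORCS5, of a complex that positions lysosomes (1.18, 0.0202), was higher, AP3M2, of an adaptor complex (-0.53, 0.0748), was lower and 5 did not pass. Together the 7 lists held 84 genes of the table, of which 56 were called higher, 6 lower and 22 neither, beside 33.3% of the whole table called higher and 35.8% lower. Without the 8 genes, 48 of 76 were called higher and 6 lower, with a median of 0.59. With adjustment over 15724 genes, 10 of the 84 were called higher and 0 lower by limma, and 8 higher and 1 lower by edgeR, where limma called 7.71% of the table higher and 7.49% lower. After removal of GC content and length (described below), limma with that adjustment called 40 higher and 3 lower, beside 910 and 846 of the 3755 genes fitted. Without PBS 10, PBS 12, METH 1 or METH 2, the count of list genes called higher fell to 35, 23, 17 and 10 of 84, where 24.8%, 18.2%, 12% and 10% of the table were called higher. Without PBS 11 or METH 3 it was 63 and 49, beside 37.8% and 32.4% of the table. The lists were described by counts only. They were chosen with earlier results of these data known, and the table holds genes selected on the same comparison.

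**Figure D3:**
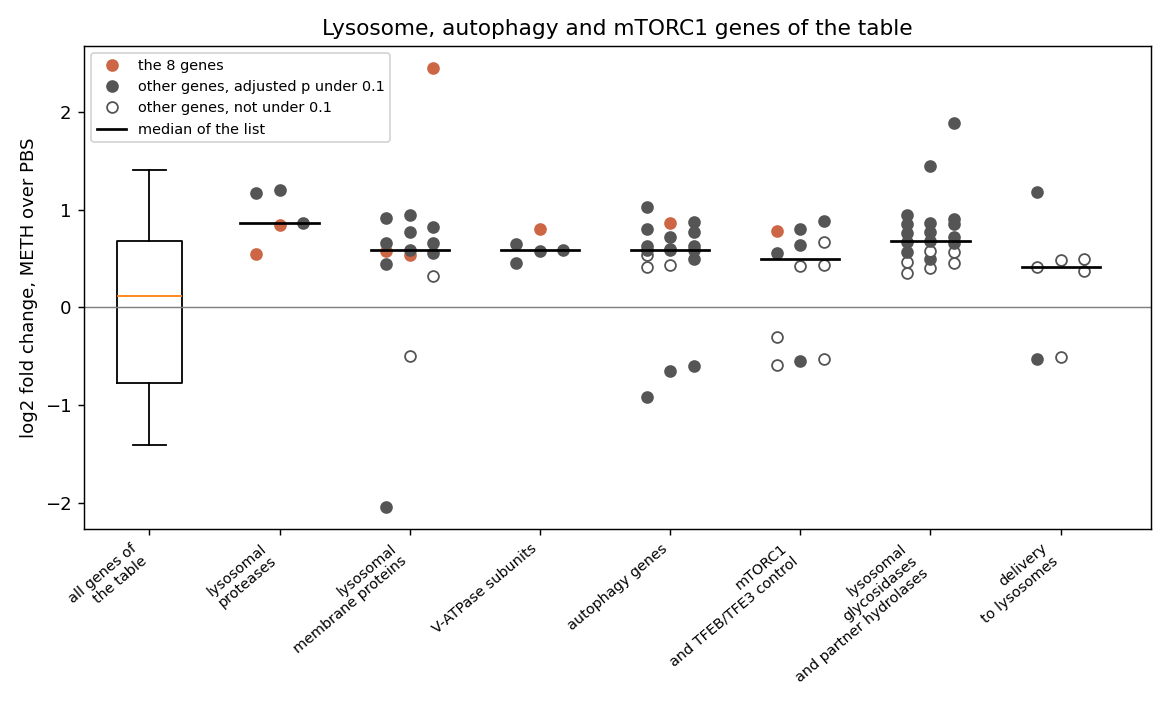
Log2 fold change of METH over PBS (vertical axis) for all 4101 genes of the table (box, median and quartiles, whiskers from the 5th to the 95th percentile) and for the genes of the 7 lists, with the 8 genes in red, filled symbols for limma adjusted p under 0.1 and a bar at the median of each list. The medians of the lists lie between 0.42 and 0.87, beside 0.11 for the table, and 6 genes called lower lie below 0.

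The order of the libraries within each group differed between the 8 genes and followed the GC content of their transcripts in part. In CTSD, CTSL, CLN3 and ATP6AP1, with a GC content of 52.5% to 64.0%, METH 3 was the lowest METH library, from 0.28 (CTSL) to 0.51 (ATP6AP1) below the mean of METH 1 and METH 2 on the log2 scale. In LAMP2, GPNMB and FNIP2, with 37.7% to 44.6%, METH 3 was the highest, by 0.41, 0.70 and 0.58. Over the 3755 genes of the table with a mean of 1 CPM or more in either group, METH 3 was the lowest METH library in 82.7% of the 573 genes with a GC content of 60% or more and in 23.5% of the 469 genes under 40%. PBS 10 was the lowest PBS library in 86.9% of the former and 9.81% of the latter. PBS 10 lay below the mean of PBS 11 and PBS 12 by 1.25 in CTSD, 0.76 in CLN3 and 0.87 in ATP6AP1. This was in the direction of the table's genes of like GC content but farther. The medians of those genes were -0.74 (60% or more, as CTSD), -0.48 (55% to 60%, as CLN3) and -0.23 (50% to 55%, as ATP6AP1). In GPNMB and GABARAPL1, however, with 44.6% and 47.8%, PBS 10 lay lower by 1.86 and 1.21. In the table's genes of 40% to 45% and of 45% to 50%, PBS 10 lay higher, by medians of 0.32 and 0.05.

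**Figure D4:**
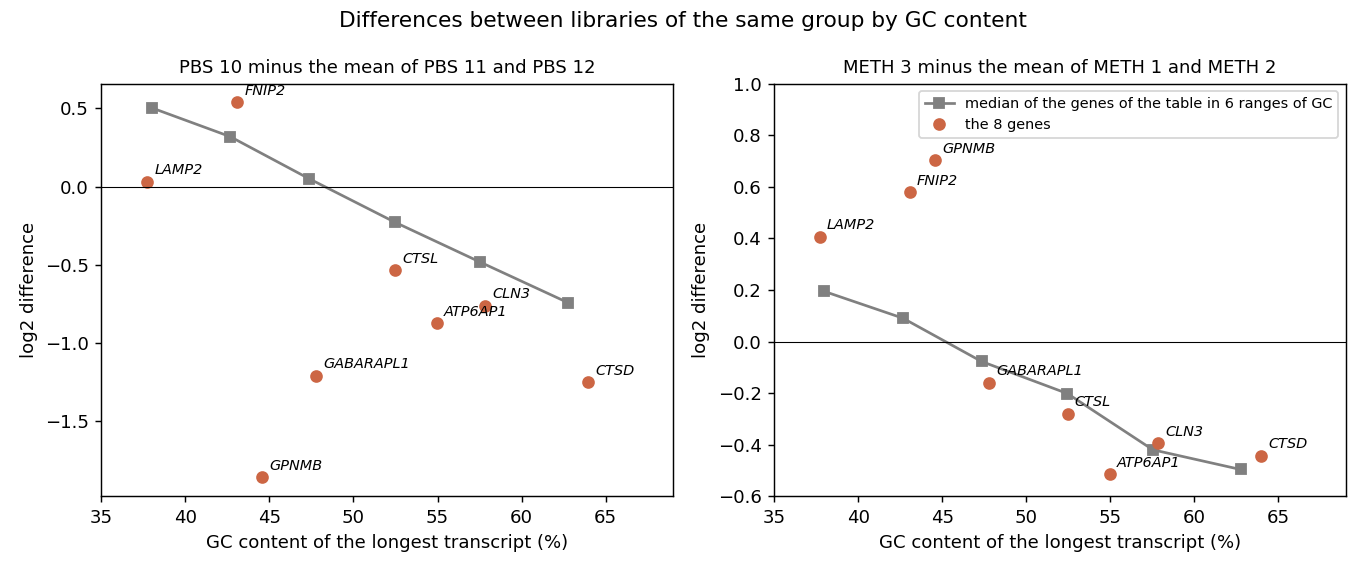
Log2 difference of PBS 10 from the mean of PBS 11 and PBS 12 (left) and of METH 3 from the mean of METH 1 and METH 2 (right) against the GC content of the longest transcript, for the 8 genes (red) and as the median of the table's genes in 6 ranges of GC content (grey). Both grey lines fall as GC content rises, from 0.50 to -0.74 on the left and from 0.19 to -0.50 on the right, and GPNMB and GABARAPL1 lie far under the line on the left.

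When the trend with GC content and length was removed within each library, an alternative chosen after seeing the data, all 8 log2 fold changes stayed positive, between 0.51 (CLN3) and 2.45 (GPNMB). The SE fell from 0.38 to 0.21 in CTSD and from 0.27 to 0.16 in CLN3, and was 0.58 and 0.59 in GPNMB. The METH and PBS groups then did not overlap in 7 of the 8, GABARAPL1 being the exception, where 41.3% of the 3755 genes did not overlap in that direction. By limma, 8 of the 8 were called higher (46.3% of the genes fitted), and with adjustment over 15724 genes 6 of the 8 (24.2% of the genes fitted). The 2 that missed the threshold were LAMP2 (adjusted p = 0.11) and GABARAPL1 (0.192). By the same fit and adjustment, 5 of 5 proteases, 9 of 15 membrane proteins and 3 of 12 mTORC1 genes were called higher. So were 12 of 21 glycosidases and partner hydrolases and 1 of 7 genes of delivery, and 1 membrane protein was lower. Of the adrenergic markers, 7 were fitted, with 1 higher and 5 lower, and 3 of 6 mesenchymal markers were higher. The part of RNA quality in the GC trend was not tested.

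Per kb of exon, the levels of the 8 genes covered a wide range. With METH, CTSD had 76.1 ± 12.7 CPM per kb (SD, n = 3), ATP6AP1 36.7 ± 7.18 and CTSL 14.7 ± 1.62. GABARAPL1 at 5.82 ± 0.793 and CLN3 at 4.82 ± 0.77 came next and did not differ beyond their spread, and with the length of the longest transcript CLN3 stood above GABARAPL1. LAMP2 at 3.20 ± 0.563, GPNMB at 1.51 ± 0.459 and FNIP2 at 0.793 ± 0.198 were the lowest. With PBS the order was the same except at its end, where GPNMB at 0.346 ± 0.327 CPM per kb and FNIP2 at 0.462 ± 0.124 overlapped.

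The genes whose levels over the 6 libraries were most like the mean profile of the 8 were OPTN and CCNI, a cyclin-like protein (Pearson r = 0.996 each), FOXJ2, a forkhead factor (0.995), TM2D1 (0.992) and MKRN1, a ubiquitin ligase (0.991). These correlations share the 6 libraries and the contrast between the groups, and 171 of the 3755 genes (4.55%) had a value over 0.95. Of the 5 genes, between 1 and 4 kept their place when a member was left out of the profile.

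Of the genes whose promoter windows held one of the motifs shown above, GPNMB (2.45) and CTSD (0.84) had log2 fold changes above the median of the 8, 0.79, and FNIP2 (0.78) and CLN3 (0.57) below it. GABARAPL1 (0.86) and ATP6AP1 (0.80), above that median, and CTSL (0.54) had none of these letters in their windows. A match of letters is a description and was not tested as a binding site.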

How the data were processed

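RNA of SH-SY5Y cells was sequenced in 6 libraries, 3 per group. The authors deposited CPM values per library for 4101 genes, with group means, a fold change (ratio), a log2 fold change and p-values of their DESeq2 comparison. The columns are headed FPKM, but 100% of the values below 1 CPM in each library are whole multiples of a single step (tolerance 0.00051), so they were used as CPM and the reads were recovered as whole numbers. The authors' ratio and log2 fold change columns were not used. Their p-values served only to find the selection (under 0.1) and the implied 15724 tested genes. The aligner, the counting tool and the genome build are not given in the sources used here.

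METH and PBS were compared with limma 3.58.1 in R 4.3.3, using lmFit followed by eBayes and an intensity trend. The fit used log2 CPM after 0.1 was added, p-values were adjusted by the Benjamini-Hochberg method across 4101 genes, and the threshold was 0.1. Fold changes are on that scale, which understates changes of low genes. Alternatives were added values of 1 and 0.01, a filter at 1 CPM, no trend, median-ratio scaling, a threshold of 0.05, adjustment over 15724 genes, edgeR 4.0.16 (quasi-likelihood) and DESeq2 1.42.0 on the recovered reads, and each library left out. Removal of GC content and length by loess (span 0.5) and edgeR with adjustment over 15724 genes were chosen after seeing the data. The 8 genes and the gene lists were chosen with earlier results of these data known. Of each list, up to 3 genes per direction with the largest change past the threshold and a mean of 1 CPM or more in either group were named, with the mTORC1 genes (1 is not reported here), relatives and overlapping genes of the 8, and the 5 genes of most like profile. Positions, lengths and GC content came from GENCODE release 29. The fits were tested on simulated data. Python 3.11.15, pandas 2.3.3, scipy 1.17.1 and matplotlib 3.10.9 were used.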

Additional observations from a re-analysis of the deposited data

How the results depend on the processing

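None of the 8 genes changed direction under any of the 19 alternatives. The calls were less stable. All 8 were called higher with 1 or 0.01 CPM added, the filter at 1 CPM, median-ratio scaling or DESeq2, beside 1267 to 1362 genes of the table. Of the 8 genes, 6 were called higher by edgeR with library totals, beside 1248 of the 4101 genes. Limma without a trend called 5 and edgeR with TMM scaling called 5, beside 1223 and 1066 of the 4101 genes. At a threshold of 0.05 or with adjustment over 15724 genes, 1 of the 8 was called, and 0 by edgeR with that adjustment. With a library left out, between 1 and 8 were called. Of the genes of the table, 316 were called higher and 307 lower with adjustment over 15724 genes, 266 and 285 by edgeR with it, 910 and 846 with it after removal of GC content and length, and 696 and 783 at a threshold of 0.05, beside 1366 and 1467. With a library left out, 412 to 1551 were higher and 563 to 1368 lower. Of the 84 list genes, 10 were called higher and 0 lower with adjustment over 15724 genes, and 8 and 1 by edgeR with it. After removal of GC content and length, 40 were higher and 3 lower with that adjustment. At a threshold of 0.05 over the table, 25 were higher and 1 lower. With a library left out, 10 to 63 were higher and 1 to 7 lower. Other scalings moved the median of all genes by -0.03 (median ratio) and -0.04 (TMM). With the longest transcript as length, METH levels in CPM per kb were 112 for CTSD, 4.38 for LAMP2, 12.3 for CLN3, 3.19 for GPNMB, 1.24 for FNIP2 and 7.40 for GABARAPL1. In a window from 100 bases before to 50 after the start, 1 of the genes (GPNMB) held TCACATGA. Leaving out a member kept 1 to 4 of the 5 genes of most like profile. The causes of these differences were not tested. A fit without a library had both fewer libraries and a different set of them, and the parts of these cannot be told apart. No paired analysis was possible because the columns of the PBS-treatment and METH-treatment groups share no replicate numbers. With 3 libraries per group, the confidence intervals of 3 of the 8 genes (CTSD, LAMP2 and CLN3) included 0. PBS 10 and METH 3 lay apart from the others along GC content, and the part of that in the width of these intervals was not tested.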
